A study of Rattus norvegicus with 2 samples.

Results

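The granin family and the amine transporters of the chromaffin granule were examined in the adrenal medulla of rats exposed to recurrent hypoglycemia (RH) or to saline. The members were chosen by gene symbol and comprise 9 of 14217 measured genes, namely the granins Chga, Chgb, Scg2, Scg3 and Scg5, the vesicular monoamine transporters Slc18a1 and Slc18a2, the granule cytochrome Cyb561 and the norepinephrine transporter Slc6a2. They were read by 11 of 31042 probe sets, each annotated to 1 of these genes only. The 2RH30 group consisted of adult male Sprague-Dawley rats injected with regular human insulin (2 IU/kg, i.p.) 2 times per day for 3 days, with 1 injection on the last of these, and the 2RS30 group of rats given saline on the same schedule. Rats of both groups carried vascular catheters, were not diabetic, and underwent the same insulin clamp on day 4 with glucose held at 40 to 50 mg/dL. They were sacrificed 30 min after the target was reached. RNA from the left medullae of 6 rats per group was pooled onto 1 array, so that the spread between rats is unknown and no difference has a p-value. Because both pools came from clamped rats, responses common to both groups cannot be seen here.

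Chromaffin granules store epinephrine and norepinephrine at high concentration together with ATP and the granins, a family of acidic secretory proteins. Granins aggregate with catecholamines and calcium in the granule lumen, take part in granule formation, and are precursors of bioactive peptides. Vesicular monoamine transporters load amines in exchange for protons pumped into the granule, cytochrome b561 passes electrons across the granule membrane, and the norepinephrine transporter recovers released amine at the plasma membrane.

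No member differed by 2-fold or more between the pools. Of the 11 probe sets, 0 reached 2-fold upward in 2RH30 and 0 downward, whereas 10.4% of all probe sets were called higher and 12.1% lower by this rule. A total of 8 probe sets read higher in 2RH30 and 3 read lower. Their differences, all given on the log2 scale as 2RH30 minus 2RS30, extended from -0.60 for Slc6a2 to 0.88 for Chga, that is from 0.659-fold to 1.84-fold. At 1.5-fold, 4 probe sets were higher (Chga, Cyb561, Chgb and 1 of Slc18a2) and 1 was lower (Slc6a2). The corresponding shares of all probe sets were 22.8% and 23.1%.

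**Figure D1:**
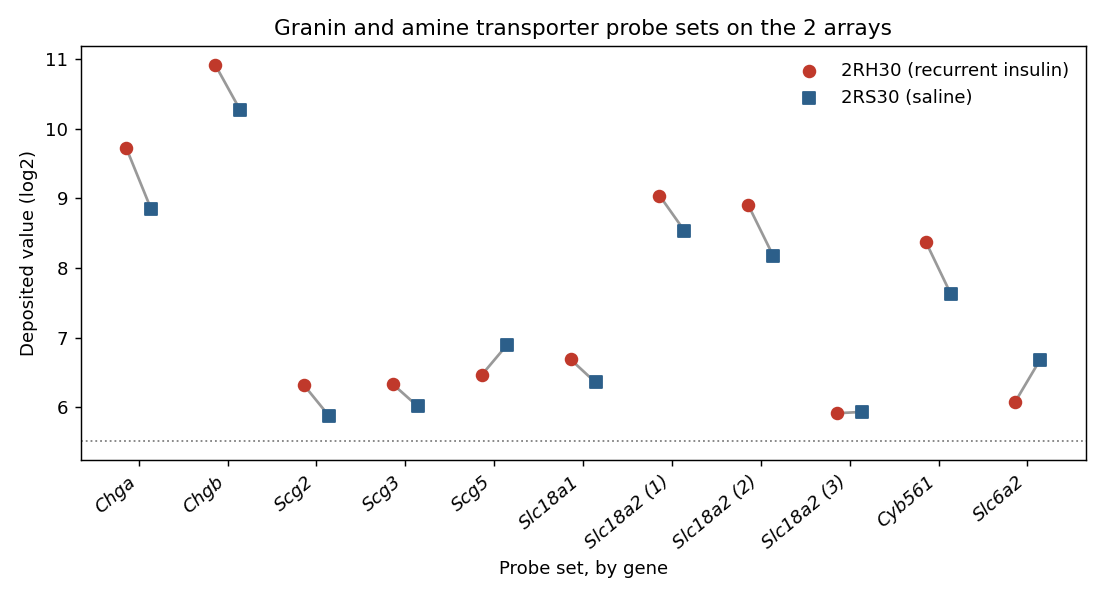
Deposited values (log2, vertical axis) of the 11 probe sets (horizontal axis, by gene, the probe sets of Slc18a2 numbered from the brightest) in 2RH30 (circles) and 2RS30 (squares), 1 pooled array each, with the median of the 2RH30 array as a dotted line. Chga, Chgb, Cyb561 and the brighter probe sets of Slc18a2 were higher in 2RH30, and Scg5 and Slc6a2 were lower.

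The arrays themselves differed with signal level, and this bears on every value below. The median difference was -0.38 in the dimmest of 20 level bins and 0.49 in the brightest. Values were spread more widely in 2RH30, with an SD of 1.57 over probe sets, than in 2RS30, with 1.28. The bioB control transcripts added at hybridization had differences of -3.51 to -3.03, and the cre controls, added at the same step, -0.58 to -0.30. The paper describes the deposited data as quantile-normalized. Applied to probe set values, this would give both arrays the same sorted values. Here these differed by up to 1.45, so the probe set values were not made equal in that way. Whether probe signals were normalized before they were summarized into probe sets was not tested. Differences are therefore given as deposited and also after this trend was subtracted as a smooth curve, called level-adjusted. As the only available yardstick, the SD among probe sets of the same gene was 0.62 among the brightest of 5 equal level classes and 0.77 in level class 4. It contains no spread between rats, pools or arrays. The SD over all probe sets of a class was similar, at 0.63 in class 5 and 0.77 in class 4. The yardstick was therefore hardly narrower than the spread of the whole class. All 11 probe sets lay in these classes, 6 in class 5 and 5 in class 4. The share called 2-fold higher in 2RH30 was 14.7% in class 5 and 13.8% in class 4, and the share called lower was 1.76% in class 5 and 5.62% in class 4.

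Upstream sequence was available from the RefSeq promoter table (GRCr8) for 6 of the 9 genes and not used for Chga, Slc18a1 and Slc6a2. Sequences are shown for the cAMP response element, the site of CREB family factors through which cAMP and calcium signals act on many chromaffin cell genes. Searched on both strands in the 250 bases before each start, the full element TGACGTCA was present in 2 of the 6, Scg2 and Slc18a2, and in 1.59% of all 33469 promoters. Its shorter core TGACG, which the full element contains once on each strand, was present in 5 of the 6 and in 18.2% of all promoters. Each stretch below has 30 bases written 5′ to 3′ on the strand of the gene, with the element or core in capitals.
Scg2 (GRCr8 chr9:88256971-88257000, minus strand): ggctgagccggTGACGTCAgcgaggaatgc
Slc18a2 (GRCr8 chr1:268399958-268399987, plus strand): agtgctatccgTGACGTCAgagccggactg
Scg3 (GRCr8 chr8:85322536-85322565, minus strand): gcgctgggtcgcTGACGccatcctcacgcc
Cyb561 (GRCr8 chr10:91388556-91388585, minus strand): ttccggcgcaggTGACGgtcacctcctcgc
Scg5 (GRCr8 chr3:121042796-121042825, minus strand): tggagcttggttgcggagggaggTGACGca
The element began 123 bases before the table's start in Scg2 and 52 bases before it in Slc18a2, and a further core lay 145 bases before the start of Slc18a2. The core began 69 bases before the start in Scg3, 137 in Cyb561 and 7 in Scg5. Other RefSeq transcripts of Scg2, Slc18a2, Cyb561 and Scg5 begin further upstream, so that distances depend on the transcript. The stretches printed for Scg2, Slc18a2 and Scg5 lie inside the span of their gene, downstream of its outermost start. Both full elements are therefore upstream of the table's start only. The window of Chgb held neither, and the 120 bases nearest its start are given for comparison.
Chgb (GRCr8 chr3:140496592-140496711, plus strand): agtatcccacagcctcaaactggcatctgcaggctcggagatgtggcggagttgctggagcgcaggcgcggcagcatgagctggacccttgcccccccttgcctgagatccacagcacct
Whether the members' values differ with the element was not tested, as there was 1 array per group. Scg2 and Slc18a2, which hold it, had differences of 0.44 and, in the brightest probe set, 0.51. Without the full element in this window, Chgb had 0.65, Cyb561 0.74, Scg3 0.32 and Scg5 -0.42. A match of letters is a description and does not show that a factor bound there.

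Of the 5 granin genes, 4 had higher values in 2RH30 and 1 had a lower value, with a median difference of 0.44. Chga encodes chromogranin A, the precursor of catestatin, a peptide that inhibits catecholamine release through nicotinic receptors. Its value was 9.72 in 2RH30 and 8.84 in 2RS30. The difference of 0.88 was the highest among the members and larger than the SD of 0.62, but 22.1% of probe sets in the same level class had a difference of larger size. Level-adjusted it was 0.36.

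Chgb encodes chromogranin B, a major granin of rodent chromaffin granules. It read 10.92 in 2RH30 and 10.27 in 2RS30, a difference of 0.65. Level-adjusted, only 0.095 of this remained, so that its difference was close to the trend of equally bright probe sets. Chga stood 0.36 above that trend. Levels of different probe sets do not rank genes by abundance, so only differences are compared between genes.

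Scg2 encodes secretogranin II, the precursor of secretoneurin. Its value was 6.32 in 2RH30 and 5.88 in 2RS30, a difference of 0.44 (level-adjusted 0.25). Scg3 encodes secretogranin III, which binds chromogranin A and anchors it to the granule membrane. It read 6.33 in 2RH30 and 6.01 in 2RS30, a difference of 0.32 (level-adjusted 0.12). Both differences were smaller than the SD of 0.77 between probe sets of a gene at this level.

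Scg5 was the exception among the granins. It encodes 7B2, a chaperone and inhibitor of prohormone convertase 2, and read 6.47 in 2RH30 and 6.89 in 2RS30. The difference was -0.42 as deposited and -0.69 level-adjusted. Only the level-adjusted value exceeded the SD of 0.62. Among probe sets of its class, where the median difference was 0.38, 90.9% had a difference above that of Scg5. By size in either direction, the measure given for Chga, 56.2% had a larger difference than Scg5. Pcsk2, which encodes prohormone convertase 2 itself, had a difference of 0.91 (6.89 in 2RH30 and 5.98 in 2RS30).

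The vesicular monoamine transporters were read by 1 probe set for Slc18a1 and 3 for Slc18a2. Slc18a1 encodes VMAT1, the transporter of endocrine cells, and read 6.69 in 2RH30 and 6.36 in 2RS30, a difference of 0.33 (level-adjusted 0.087). Slc18a2 encodes VMAT2, which rat chromaffin cells share with monoamine neurons. Its brightest probe set read 9.04 in 2RH30 and 8.54 in 2RS30, a difference of 0.51, of which -0.000993 was left after level adjustment. The second read 8.90 in 2RH30 and 8.17 in 2RS30, a difference of 0.73 (level-adjusted 0.23), and the third read 5.92 in 2RH30 and 5.93 in 2RS30, a difference of -0.018 (level-adjusted -0.18). The 3 probe sets averaged 0.40 ± 0.38 (SD over probe sets of the same 2 pools), so that the mean was about as large as their disagreement. The order of VMAT1 and VMAT2 therefore depended on the probe set.

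Cyb561 encodes cytochrome b561, which regenerates ascorbate inside the granule for dopamine beta-hydroxylase. It read 8.37 in 2RH30 and 7.62 in 2RS30, a difference of 0.74 (level-adjusted 0.29). The deposited difference was larger than the SD of 0.62 and the level-adjusted difference was not. Slc6a2 encodes the norepinephrine transporter, the member that acts at the plasma membrane and not in the granule. It read 6.07 in 2RH30 and 6.68 in 2RS30, a difference of -0.60 (level-adjusted -0.82), the lowest of the members in both forms. As deposited, 43.3% of probe sets in the level class of Slc6a2 had a difference of larger size. Its probe set is of a kind that can match several transcripts, and no other probe set read this gene.

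Ordered by difference, the 11 probe sets had steps of 0.013 to 0.41 between neighbours, each smaller than the SD among probe sets of 1 gene. With 11 values over a range of 1.48 small steps follow from the number of values, and with 1 array per group the order was not tested.

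The deposited and level-adjusted forms were compared over all members. The median over the 9 genes was 0.44, against 0.11 over all genes, and level-adjusted it was 0.095, against 0.017. Of the 11 level-adjusted differences, 7 lay above 0 and 4 below, 9 were smaller than the SD of their class, and 0 reached 2-fold, where 8.99% of all probe sets did so upward and 10.2% downward. Those exceeding the SD were Scg5 and Slc6a2, both lower in 2RH30. The share of all probe sets beyond this SD was not computed, so the count has no background to be read against. A higher value in 2RH30 was the rule for bright probe sets, found in 74.9% of class 5 and 61.0% of class 4. The contribution of the array trend to the members' differences was not tested separately from a change in RNA.

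**Figure D2:**
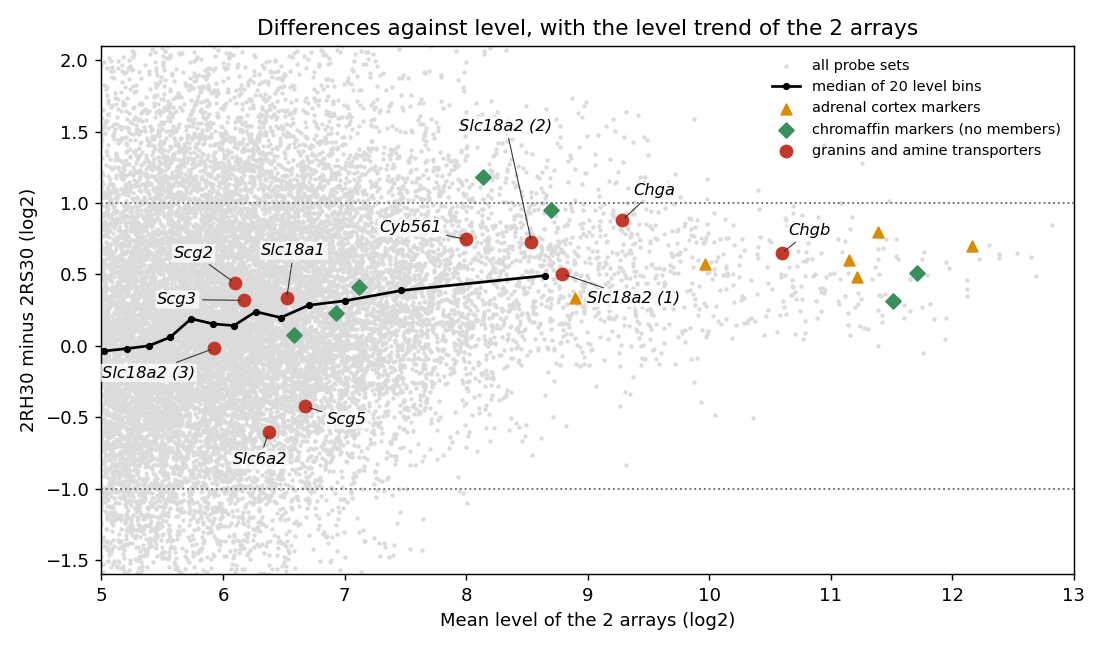
The vertical axis gives 2RH30 minus 2RS30 and the horizontal axis the mean signal over both arrays, both in log2, for all probe sets (grey), the members (red, the probe sets of Slc18a2 numbered from the brightest) and marker genes of the adrenal cortex and of chromaffin cells. The black line joins the medians of level bins, dotted lines mark 2-fold, and points beyond the axes are not drawn. Most bright members lie near or above the line with the cortex markers, and Scg5 and Slc6a2 lie below it.

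**Figure D3:**
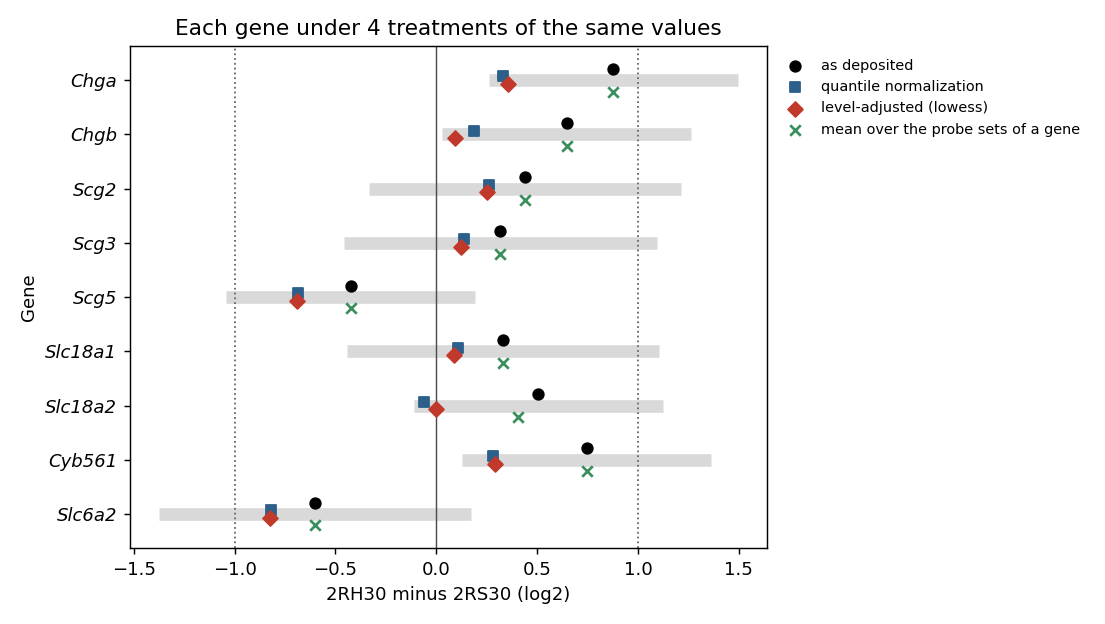
The horizontal axis gives 2RH30 minus 2RS30 in log2 for each gene (vertical axis) as deposited, after quantile normalization, after level adjustment, and as the mean over its probe sets. Grey bars extend 1 SD among probe sets of 1 gene to each side of the deposited value and dotted lines mark 2-fold. Chga, Cyb561 and Chgb move toward 0 after either adjustment, and Scg5 and Slc6a2 move away from it.

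The members were next set beside markers of the cells in the tissue. In these bulk pools, fewer cells of a type and less RNA per cell cannot be told apart. The chromaffin cell genes Th, Pnmt and Dbh, which encode enzymes of catecholamine synthesis, were at percentiles 97.6 to 99.9 of the mean level, so the labelled tissue was represented. Th read 11.96 in 2RH30 and 11.45 in 2RS30, Pnmt 11.67 in 2RH30 and 11.35 in 2RS30, and Dbh 9.17 in 2RH30 and 8.22 in 2RS30. The 7 measured chromaffin markers that are not members had a median difference of 0.41 (0.078 to 1.18, level-adjusted -0.077), over a range of levels. Split by level, the 4 members in the top 10% of probe sets (Chga, Chgb, Slc18a2 and Cyb561) had a median of 0.70 (0.51 to 0.88, level-adjusted 0.19), and the other 5 members a median of 0.32 (-0.60 to 0.44, level-adjusted 0.087). All 3105 probe sets in the top 10% had a median of 0.44 with quartiles of 0.13 and 0.78 (level-adjusted -0.015).

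Adrenal cortex markers were also bright, at a median level percentile of 99.8. All 6 measured cortex markers had higher values in 2RH30, with differences of 0.33 to 0.80 and a median of 0.59 (level-adjusted 0.036), a range that overlaps that of the bright members. Star, the cholesterol carrier of steroidogenesis, read 12.51 in 2RH30 and 11.81 in 2RS30. Cyp11b1 read 11.46 in 2RH30 and 10.98 in 2RS30, and Cyp11a1 read 11.79 in 2RH30 and 10.99 in 2RS30, both steroidogenic enzymes. The summed level of the cortex markers was 14.03 in 2RH30 and 13.39 in 2RS30 on the log2 scale. The part of cortical RNA in the members' values was not tested.

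Markers of other cells varied in both directions. Of 5 measured Schwann and sustentacular markers 0 were 2-fold different (median 0.090, summed level 7.93 in 2RH30 and 7.72 in 2RS30). As deposited, the same held for 6 endothelial markers (median -0.16, summed level 7.93 in 2RH30 and 8.05 in 2RS30). Level-adjusted, 1 endothelial marker, which was dim, was 2-fold higher and 0 were lower, where 8.95% of all genes were called higher and 9.31% lower. Of the defining glial markers, Sox10 read 5.53 in 2RH30 and 5.44 in 2RS30, and S100b was dim at 4.23 in 2RH30 and 4.41 in 2RS30. Of 8 macrophage markers 4 were 2-fold or more higher in 2RH30 and 0 lower, where 11.5% of all genes were called higher and 9.62% lower. Their median was 1.11 (level-adjusted 1.04, with 5 called higher) and their summed level 10.57 in 2RH30 and 9.86 in 2RS30. The 4 were the complement genes C1qa at 2.71, C1qb at 1.38 and C1qc at 1.33, and Cd68 at 1.60. In 2RS30, C1qa read 3.06 and Cd68 4.47, both below that array's median of 5.50, so their differences start from low signal. Lyz2 and Cd163 were at 0.55 and 0.89, and Csf1r and Ptprc at -0.77 and -0.71. Of 2 measured red blood cell genes, Alas2 differed by 1.38 and Hbb by 0.42. Their part in the members' values was not tested.

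Other components of the granule were compared by gene, each read from its brightest probe set. By that reading 11.5% of all genes were 2-fold or more higher in 2RH30 and 9.62% lower, and level-adjusted 8.95% and 9.31%. Of 17 measured genes for granin-like proteins and other soluble cargo, 5 were 2-fold or more higher and 0 lower (level-adjusted 4 and 0), with a median of 0.74 (level-adjusted 0.45). The highest were the opioid precursor Penk, at 9.97 in 2RH30 and 7.69 in 2RS30, and neurotensin (Nts), at 6.67 in 2RH30 and 4.53 in 2RS30. The others past 2-fold were Npy at 1.59, Gal at 1.34 and Nucb1 at 1.11. In 2RS30, Nts and also Gal (4.74) read below that array's median of 5.50, so their differences start from low signal. Penk, Nts, Npy and Gal, and also Vgf on the same list, are listed by the study as raised by RH at baseline, and the list was drawn up with that known. Its count and median are therefore not independent evidence. The lowest were Sst, at -0.91, and Tac1, at -0.093. The granins, stored in the same granules, had differences under 2-fold throughout, and the contrast between cargo and granins was not tested.

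Of 21 measured vesicular transporters and granule membrane genes, 4 were 2-fold or more higher and 2 lower (level-adjusted 3 and 1), with a median of 0.42 (level-adjusted 0.12). The highest that were not dim were Slc2a4, a glucose transporter, at 1.37 and Atp6ap2, an accessory subunit of the proton pump, at 1.34, although their other probe sets differed by 0.35 and -0.52. In 2RS30 Slc2a4 read 4.79 and Atp6ap2 5.12, both below that array's median of 5.50. The lowest that were not dim were the vesicular glutamate transporter Slc17a6, at -1.15, and the proton pump subunit Atp6v0a1, at -0.79. The other gene past 2-fold downward, Slc18b1, was dim, at -1.09. Among the 4 measured amine and cation transporters of the plasma membrane, relatives or counterparts of Slc6a2, 0 were 2-fold different and 3 of the 4 lay below 0 (median -0.37, level-adjusted -0.52). Over all genes, 6231 of 14217 lay below 0. Slc22a2 and Slc22a3, which are among the 4, were dim. The serotonin transporter Slc6a4 read 8.12 in 2RH30 and 8.63 in 2RS30, a difference of -0.51 (level-adjusted -0.99). The study lists Slc6a4 as lowered by RH at baseline and later in the clamp. It also names the norepinephrine transporter among genes lowered later in the clamp. The list was drawn up with earlier results known, so its count and median are not independent evidence. The dopamine transporter Slc6a3 differed by -0.23 in its brighter probe set and by -1.10 in the other (level-adjusted -1.21).

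Of 8 genes for ascorbate transport and relatives of cytochrome b561, 1 was 2-fold higher and 1 lower (level-adjusted 0 and 1), with a median of 0.34 (level-adjusted -0.071). The gene called lower, Cybrd1, was dim, at -1.52 (level-adjusted -1.23). Cyb5a, a cytochrome b5, was at 1.23 and Cyb561d2, a relative of Cyb561, at 0.73, while Slc23a1, an ascorbate transporter, was at -0.46 and the lysosomal relative Cyb561a3 at -0.13. Of 24 measured genes for dense core granule formation and sorting, 4 were 2-fold or more higher and 0 lower (level-adjusted 3 and 0), with a median of 0.091. Pick1, a membrane-curving adaptor of granule formation, was at 1.44 and the SNARE Vti1a at 1.29. Pick1 read 4.28 in 2RS30, below that array's median of 5.50. Hid1, a trans-Golgi protein needed for granule maturation, was at -0.62 in its brighter probe set and 0.52 in the other, and Vamp4 at -0.48 and 0.47. Of 9 measured catecholamine enzymes 0 were 2-fold different, with a median of 0.41 (level-adjusted -0.077). Dbh, the granule enzyme served by cytochrome b561, was at 0.95 and Gch1, which makes the cofactor of tyrosine hydroxylase, at 0.93, whereas Pnmt and Ddc were at 0.31 and 0.23. A second probe set differed by 1.58 for Gch1 (level-adjusted 1.23) and by 0.80 for Ddc, and averaging probe sets brought 1 enzyme gene past 2-fold.

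**Figure D4:**
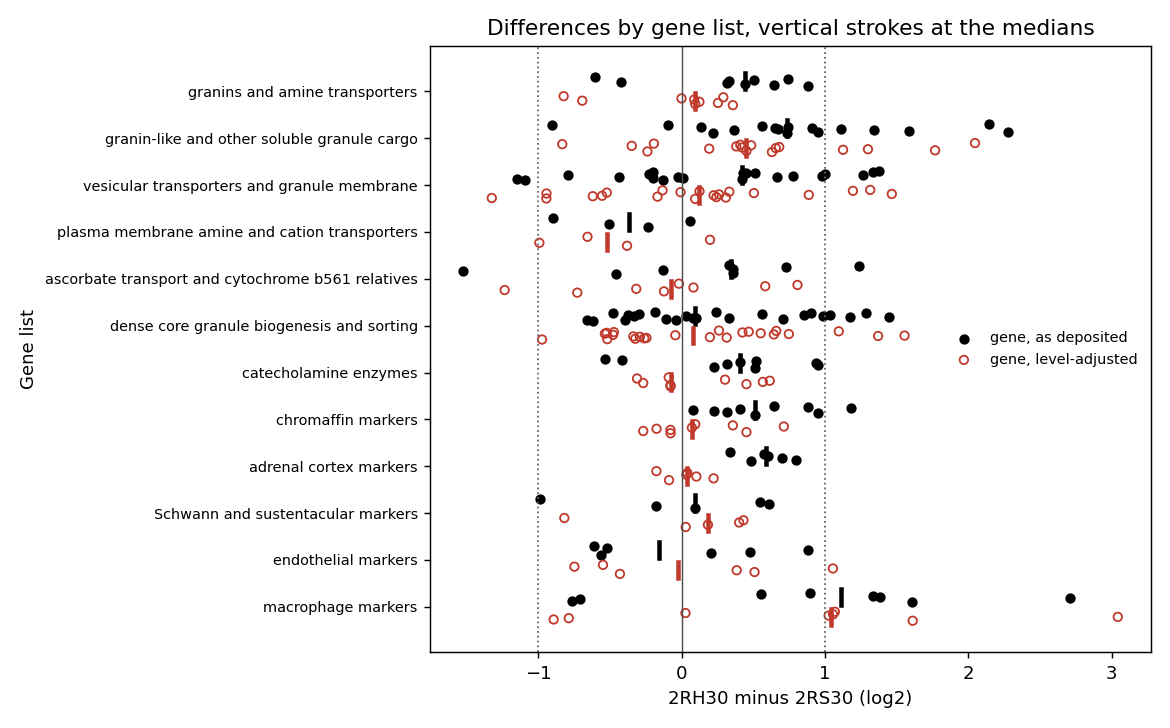
Each gene of a list (vertical axis) is placed at its 2RH30 minus 2RS30 value in log2 (horizontal axis), filled for deposited values and open for level-adjusted ones, with strokes at the medians and dotted lines at 2-fold. The members stay within 2-fold in both forms, while soluble cargo reaches 2.28 and macrophage markers 2.71 (C1qa, which had low signal in 2RS30).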

How the data were processed

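Total RNA from left adrenal medullae was pooled from 6 rats per group, labelled with biotin and hybridized to Affymetrix whole-genome rat arrays. The authors deposited log2 values per probe set (the scale was read from their range). The submitters' processing notes list Affymetrix Expression Console, and the paper names GCRMA and quantile normalization. The arrays' sorted probe set values differ by up to 1.45. Whether quantile normalization was applied at an earlier step was not tested. Which of the named procedures gave the deposited values was not settled from the sources used. With 1 array per group no test was made, and this number limits the precision of every value.

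From these values 2RH30 minus 2RS30 was computed for 31042 probe sets after 57 controls were removed. Probe sets below the array median on both arrays are called dim. The level trend was removed by lowess (fraction 0.3, 3 iterations), checked on simulated data. The simulated trend was linear, and its noise was narrower than the spread of the differences in these data. How the fit behaves at the wider spread was not checked. Genes were named from the platform annotation, updated by gene number through RefSeq (GRCr8, 20758 of 20826 single-gene probe sets matched). Named genes were all members and, of each companion list, up to 2 highest and 2 lowest genes that were not dim. Of each marker list the first 3 genes could be named. Pcsk2, Npy, Gal, Nucb1, Vgf, Slc18b1, Slc22a2, Slc22a3, Slc23a2, Cybrd1, the remaining macrophage markers and the second probe sets of companion genes were named after their values were seen. Members and lists were chosen with earlier results of these data known. Python 3.11.15, pandas 2.3.3, numpy 2.4.6 and statsmodels 0.14.6 were used.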

Additional observations from a re-analysis of the deposited data

How the results depend on the processing

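The 9 genes had a median difference of 0.44 in the deposited values, 0.14 after quantile normalization and 0.095 after level adjustment. The limit for this median was 0.23, the SD among probe sets of a gene over the square root of the number of genes. Quantile normalization and level adjustment moved the median by more than this limit. It moved by less when the arrays were centred on the median or probe sets were averaged. The same held when dim probe sets, or those matching several transcripts, were left out. At 1.5-fold 4 probe sets were higher and 1 lower, against 0 and 0 at 2-fold, which follows from the lower threshold. At 2-fold both counts were 0 under all other alternatives. For single members, Slc18a2 had a difference of -0.0612 after quantile normalization and -0.000993 after level adjustment, against 0.51 as deposited. All members moved by less than the SD of their level class under every alternative that gave a value. Leaving out dim probe sets could not move them, as 0 member probe sets were dim. Averaging could move only Slc18a2, as the other 8 genes had 1 probe set. The limit for single members was also wide, since Chgb stayed within it while falling from 0.65 to 0.095 after level adjustment. Without probe sets that can match several transcripts, Slc6a2 had no value. Among counts and medians of the other lists, 208 stayed within their limits (1.5 times for a count, the SD over the square root of the number of genes for a median) and 56 did not. The causes were not tested. Leaving out a replicate was not possible with 1 array per group, and pseudocounts do not apply to log values. No paired analysis was possible because 1 array per group leaves nothing to pair. Background signal was not used here.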
